A study of Mus musculus with 26 samples.

Results

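Lyz1 and Lyz2 (the mouse lysozymes), Ltf (lactoferrin), Lcn2 (lipocalin 2) and Slpi (secretory leukocyte peptidase inhibitor) encode antimicrobial proteins of tears and inflamed epithelium, and they are described here in the lacrimal gland at 5 ages. These 5 genes of the 18194 with a probe set were chosen by name, with their differences from 4 weeks already known. They were read through the 7 probe sets annotated to 1 of them and to no other gene. Lyz1 had 3 probe sets and each of the others had 1. Their levels relative to 4 weeks are therefore given as a description, with no test. The steps between later ages and the spread among arrays of 1 age were tested.

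The study followed male C57BL/6.NOD-Aec1Aec2 mice, a model of Sjögren's syndrome, an autoimmune disease of the tear and salivary glands. All groups carried the same pair of NOD mouse intervals on the C57BL/6 background, Aec1 from chromosome 3 and Aec2 from chromosome 1, so no group is a non-autoimmune control and age cannot be told apart from disease stage. The groups were 4 arrays at 4 weeks (before disease), 6 at 8 weeks (early, without clinical signs), 6 at 12 weeks (first influx of leukocytes), 5 at 16 weeks (early clinical phase) and 5 at 20 weeks (onset of reduced secretion). The stages are those of the study's design text. Each array is called a biological replicate in its title. How many animals went into 1 replicate is not stated in the labels, so p-values measure only the spread between these samples.

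Lysozyme cleaves the peptidoglycan of bacterial walls. Mice carry it as a pair of neighbouring genes, of which Lyz2 is the gene typical of macrophages and other myeloid cells and Lyz1 that of the Paneth cells of the gut. Lactoferrin binds iron and lipocalin 2 binds the siderophores with which bacteria collect iron, so both withhold iron. Lactoferrin is a major secretory product of lacrimal acinar cells and is also stored in neutrophil granules. Slpi inhibits serine proteases such as neutrophil elastase.

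In the GRCm38.p6 assembly Lyz2 lies on chromosome 10 from 117277541 to 117282272 and Lyz1 from 117287795 to 117292868, with 5522 bases between them. Ltf lies on chromosome 9 from 111019292 to 111042766. Lcn2 lies on chromosome 2 from 32384637 to 32387739 and Slpi on the same chromosome from 164354070 to 164356507. The 250 bases before the start of the 4 genes whose levels varied are shown 5′ to 3′ on the gene's strand, as given by RefSeq for that build, because the lysozymes resemble each other there and the others do not. The windows are chr10:117292869-117293118 (minus strand) for Lyz1, chr10:117282273-117282522 (minus strand) for Lyz2, chr9:111019042-111019291 (plus strand) for Ltf and chr2:32387740-32387989 (minus strand) for Lcn2. Capitals mark the reverse complement of AGGAAGT in the lysozymes and a match to TTGCNNAA on either strand in Ltf and Lcn2.
Lyz1: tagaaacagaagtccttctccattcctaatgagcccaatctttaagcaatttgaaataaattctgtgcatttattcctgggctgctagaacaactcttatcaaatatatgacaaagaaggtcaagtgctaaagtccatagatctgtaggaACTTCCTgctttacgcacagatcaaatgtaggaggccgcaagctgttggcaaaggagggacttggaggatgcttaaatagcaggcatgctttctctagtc
Lyz2: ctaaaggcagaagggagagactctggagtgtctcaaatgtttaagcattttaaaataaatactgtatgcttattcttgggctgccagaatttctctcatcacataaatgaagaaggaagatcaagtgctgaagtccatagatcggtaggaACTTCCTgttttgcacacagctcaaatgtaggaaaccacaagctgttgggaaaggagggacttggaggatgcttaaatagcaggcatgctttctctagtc
Ltf: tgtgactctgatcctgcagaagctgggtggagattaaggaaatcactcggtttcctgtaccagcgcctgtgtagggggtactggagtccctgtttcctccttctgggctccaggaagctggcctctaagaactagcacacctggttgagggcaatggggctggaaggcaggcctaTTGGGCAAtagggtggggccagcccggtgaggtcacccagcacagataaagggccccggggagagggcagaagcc
Lcn2: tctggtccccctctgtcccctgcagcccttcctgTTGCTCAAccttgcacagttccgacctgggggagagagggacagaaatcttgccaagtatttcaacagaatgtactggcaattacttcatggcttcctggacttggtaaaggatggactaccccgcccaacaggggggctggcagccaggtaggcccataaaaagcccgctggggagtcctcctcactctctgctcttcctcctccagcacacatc
Set side by side without gaps, the Lyz1 and Lyz2 windows were identical at 152 of 250 bases (60.8%), and at 92 of the 100 bases nearest the start. Against Lyz2, the windows of Ltf, Lcn2 and Slpi were identical at 69, 56 and 71 bases. AGGAAGT is a motif of ETS factors such as the myeloid factor PU.1. It was found 100 bases before the start of both lysozymes, on the strand opposite to the printed letters, and in no other window of the 5. Of all 32851 upstream windows of this length, 7.69% hold it on either strand. TTGCNNAA, a motif of C/EBP factors, was found in Lyz1, Ltf, Lcn2 and Slpi and in 9.56% of all windows. A loose motif of NF-κB was found in Ltf and Lcn2 and in 45.8% of all windows. TATAAA was in none of the 5 and in 12.4% of all windows. Both strands were searched, and the NF-κB matches in Ltf overlap each other. These matches describe letters in the windows.

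The deposited values are log2 expression. Array medians lay between 2.94 and 3.22, and levels below 4.04, a limit set 1 log2 unit over the middle of the array medians, are called near background. Levels of different probe sets are not compared with each other, since probe sets differ in how strongly they bind. The 20 weeks replicate 1 and 16 weeks replicate 4 arrays stood apart, with standard deviations over all probe sets of 1.36 and 1.68 against 1.78 to 2.27 on the other 24. The lacrimal identity of the tissue was checked with 12 markers, of which 11 were kept by the filter on low values and Chrm3, a muscarinic receptor, was near background on all arrays. On 16 weeks replicate 4, 7 of the 12 lay below the range of the other 24 arrays and 5 within it. The acinar marker Aqp5 was at 4.90 there against 9.60 to 11.45, and Bhlha15 at 6.08 against 11.12 to 12.82, while Car6 at 13.87 and Krt8 at 10.96 were within the range. On 20 weeks replicate 1, 10 of the 12 lay below that range, with Aqp5 at 8.09 and Bhlha15 at 9.50.

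Lyz2 was low at 4 weeks and high on every array from 8 to 16 weeks. Its probe set (1423547_at) read 7.74, 7.49, 5.73 and 7.70 on the 4-week arrays. At 8 weeks it read 10.22 to 11.30 with a median of 10.69, and at 12 weeks 9.93 to 11.22 with a median of 10.81. The 8-week and 12-week arrays did not overlap with the 4-week arrays. At 16 weeks the 5 arrays read 10.33, 10.79, 9.35, 10.35 and 9.71, and at 20 weeks 7.23, 8.94, 10.12, 10.15 and 10.94. The first 20-week array lay among the 4-week values and the fifth lay within the 8-week range. The fitted log2 difference from 4 weeks was 3.59 ± 0.52 (SE) at 8 weeks, which is 12.0-fold, and 3.57 ± 0.52 at 12 weeks. It was 2.94 ± 0.54 at 16 weeks and 2.31 ± 0.54 at 20 weeks. The last 2 were 2.88 and 2.87 without the 2 arrays that stand apart.

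Lyz1 was read by 2 kinds of probe set that gave different pictures. Probe sets whose names end in _x_at hold probes that can bind related transcripts. One of these, 1439426_x_at, had the highest mean and stands for the gene. It read 9.24, 8.04, 7.29 and 7.87 at 4 weeks, then 11.34 to 12.89 with a median of 12.12 at 8 weeks and 11.56 to 12.92 with a median of 12.64 at 12 weeks. It read 11.90, 12.55, 11.34, 12.29 and 12.00 at 16 weeks, and 9.09, 11.86, 12.53, 12.39 and 12.42 at 20 weeks. The arrays at 8, 12 and 16 weeks lay above all 4-week arrays, and at 20 weeks replicate 1 alone lay among them. The difference from 4 weeks was 4.02 ± 0.52 at 8 weeks (16.2-fold), 4.38 ± 0.52 at 12 weeks, 3.91 ± 0.54 at 16 weeks and 3.55 ± 0.54 at 20 weeks, and the last 2 were 3.84 and 4.19 without the 2 arrays that stand apart. The other _x_at probe set, 1436996_x_at, differed from 4 weeks by 3.91 ± 0.53 at 8 weeks and 3.42 ± 0.55 at 20 weeks.

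The third Lyz1 probe set, 1450822_at, lies outside the _x_at class and was near background on all 26 arrays. It read 2.71 to 3.99 and lay above its array's median on 1 array, 12 weeks replicate 2, so it was not kept for the tests. Its mean was 2.86 at 8 weeks and 2.80 at 4 weeks, a difference of 0.06. Over the 26 arrays the representative Lyz1 probe set had a Pearson correlation of 0.95 with the Lyz2 probe set and of 0.15 with 1450822_at. These points share arrays and the overall spread of each array. The sequences of the probes were not used here, so which lysozyme transcript the _x_at probe sets read was not tested, and their values are uncertain as values of Lyz1 alone. With the probe sets of Lyz1 averaged, its 8-week difference from 4 weeks was 2.66 ± 0.35.

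**Figure D1:**
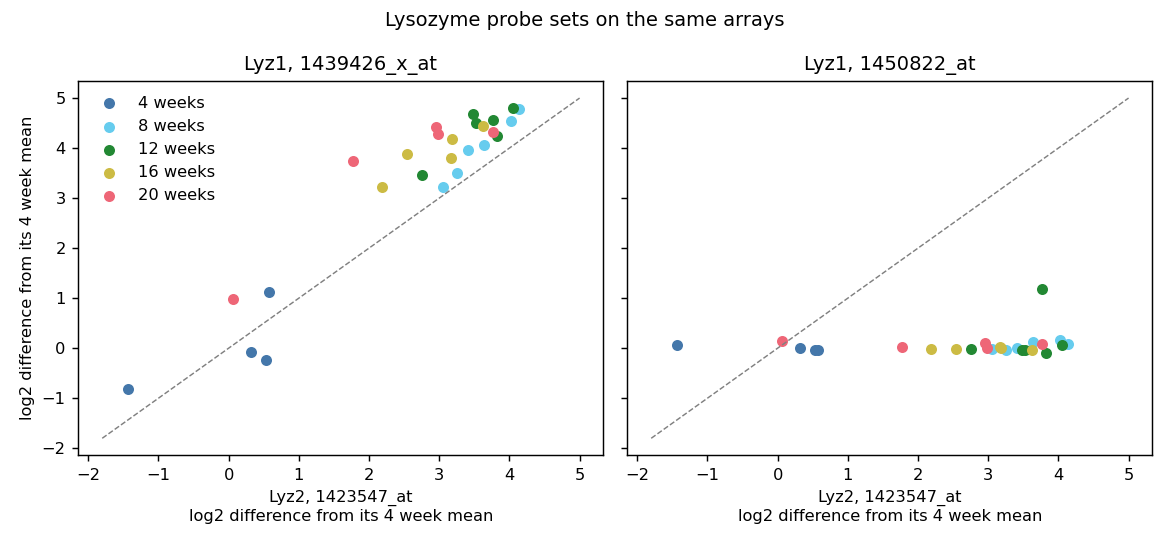
Each point is an array, coloured by age. The horizontal axes give the Lyz2 log2 difference from its 4-week mean and the vertical axes the same for 2 Lyz1 probe sets, with a dashed line of equal change. In the left panel 1439426_x_at follows Lyz2 and lies above the line on all arrays from 8 to 20 weeks, and in the right panel 1450822_at stays near 0 on all arrays except 12 weeks replicate 2.

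The difference of Lyz1 (1439426_x_at) from its 4-week mean exceeded that of Lyz2 on every array from 8 to 20 weeks. The excess averaged 0.43 ± 0.18 at 8 weeks (SD, n = 6), 0.81 ± 0.27 at 12 weeks (n = 6), 0.97 ± 0.26 at 16 weeks (n = 5) and 1.24 ± 0.54 at 20 weeks (n = 5), all in log2 units. The same quantity on the 4-week arrays, which are centred on 0, had an SD of 0.69 and ran between -0.78 and 0.61. At 8 weeks all arrays but replicate 3 lay within that range. From 12 to 20 weeks all arrays lay above it except 12 weeks replicate 5 and 20 weeks replicate 5. The excess was 0.96 at 16 weeks and 1.32 at 20 weeks without the 2 arrays that stand apart. It is relative to the 4-week mean, on which the members were chosen, and was not tested.

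Ltf differed least among the 4 genes whose levels varied. It read 9.71, 11.38, 10.92 and 11.92 at 4 weeks. At 8 weeks it read 12.05 to 13.18 with a median of 12.92, and at 12 weeks 12.87 to 13.85 with a median of 13.44. It read 12.96, 13.19, 12.75, 13.41 and 13.23 at 16 weeks, and 11.10, 12.84, 13.31, 13.24 and 13.86 at 20 weeks. All later arrays except 20 weeks replicate 1 lay above the 4-week arrays, but the highest at 4 weeks nearly met the lowest at 8 weeks. The difference from 4 weeks was 1.84 ± 0.41 at 8 weeks (3.58-fold), 2.44 ± 0.41 at 12 weeks, 2.12 ± 0.42 at 16 weeks and 1.89 ± 0.42 at 20 weeks. The last 2 were 2.05 and 2.33 without the 2 arrays that stand apart.

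Lcn2 was near background on 3 of the 4 arrays at 4 weeks and on no later array. It read 5.99, 3.43, 3.76 and 4.00 at 4 weeks. It read 6.76 to 9.05 at 8 weeks with a median of 8.36, and 7.91 to 9.13 at 12 weeks with a median of 8.66. At 16 weeks it read 9.63, 9.61, 8.47, 7.61 and 9.25, and at 20 weeks 5.32, 8.29, 8.48, 9.73 and 10.34. The 20-week arrays spread most, with the first below the highest 4-week array and the fifth the highest of all 26. The difference from 4 weeks was 3.90 ± 0.70 at 8 weeks (14.9-fold), 4.29 ± 0.70 at 12 weeks, 4.62 ± 0.73 at 16 weeks and 4.14 ± 0.73 at 20 weeks. On the 3 arrays near background at 4 weeks the level itself is limited by background. The difference was 4.94 at 16 weeks and 4.92 at 20 weeks without the 2 arrays that stand apart.

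Slpi was near background on all 26 arrays, at 3.41 to 3.86, although the filter kept it. Its mean was 3.54 ± 0.07 at 8 weeks (SD, n = 6) and 3.62 ± 0.07 at 4 weeks (n = 4). The difference at 8 weeks was -0.09 ± 0.07, and the groups overlapped. At 20 weeks it was 0.05 ± 0.07. A change of Slpi below the background of these arrays could not be detected.

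**Figure D2:**
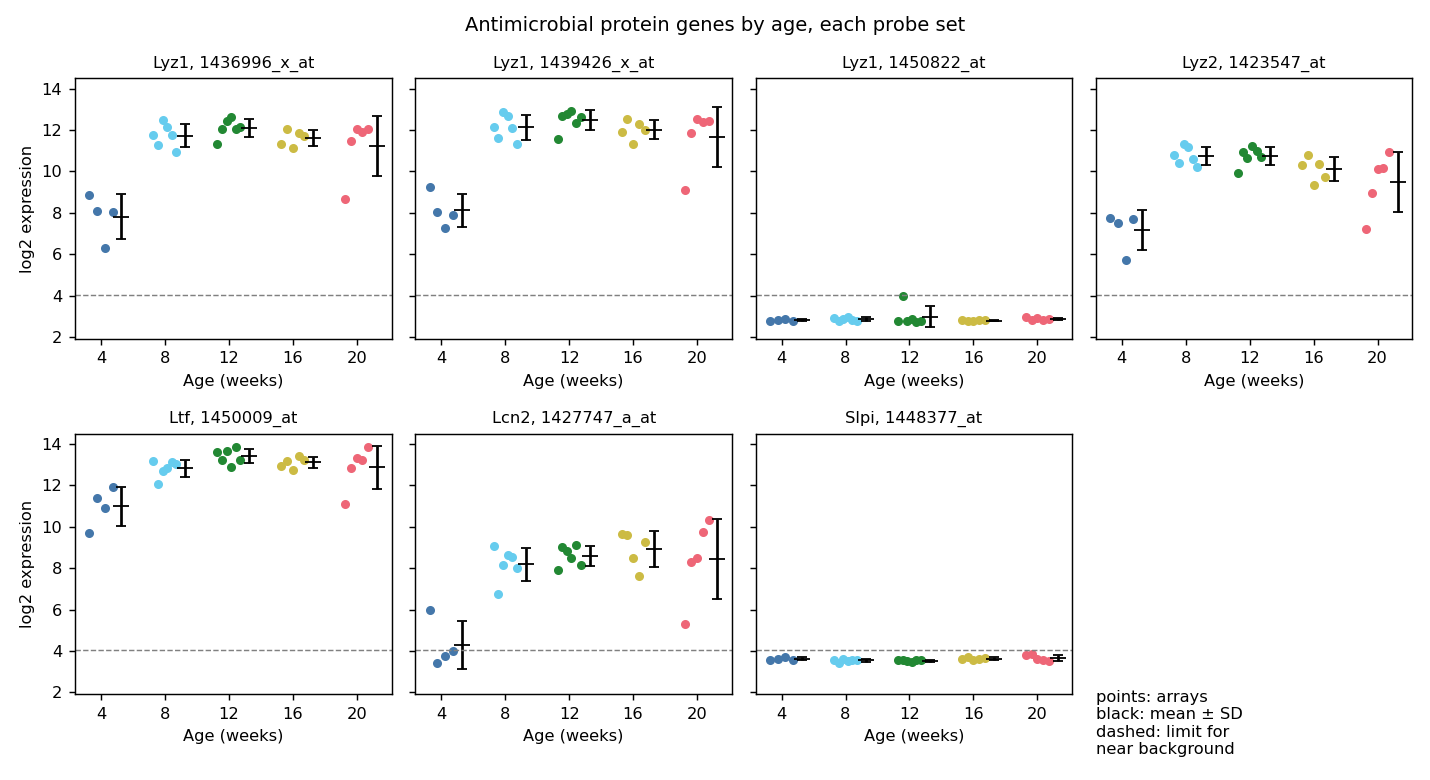
Log2 expression of each of the 7 probe sets on each array, by age in weeks, with the mean and SD of each age in black and the near-background limit of 4.04 dashed. Both _x_at probe sets of Lyz1, Lyz2, Ltf and Lcn2 are low at 4 weeks and on 20 weeks replicate 1, and Slpi and 1450822_at lie under the limit on all arrays.

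Ordered by mean, Lyz1 (1439426_x_at) was highest at 12 weeks, then at 8, 16, 20 and 4 weeks. Lyz2 was highest at 8 weeks, then at 12, 16, 20 and 4 weeks. Ltf ran 12, 16, 20, 8 and 4 weeks, and Lcn2 16, 12, 20, 8 and 4 weeks. All neighbours in these orders overlapped except the last pair of Ltf and the last pair of Lcn2, where 8 weeks lay above 4 weeks on every array. In each of the 4 genes the SD at 20 weeks (1.46 for Lyz1, 1.44 for Lyz2, 1.05 for Ltf and 1.94 for Lcn2) was above that at any other age. These SDs at 20 weeks include replicate 1, the lowest of the 5 arrays for all 4 genes. The rest of that age read 11.86 to 12.53 for Lyz1 and 8.94 to 10.94 for Lyz2. They read 12.84 to 13.86 for Ltf and 8.29 to 10.34 for Lcn2. Whether the spread at 20 weeks is larger without replicate 1 was not tested.

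**Figure D3:**
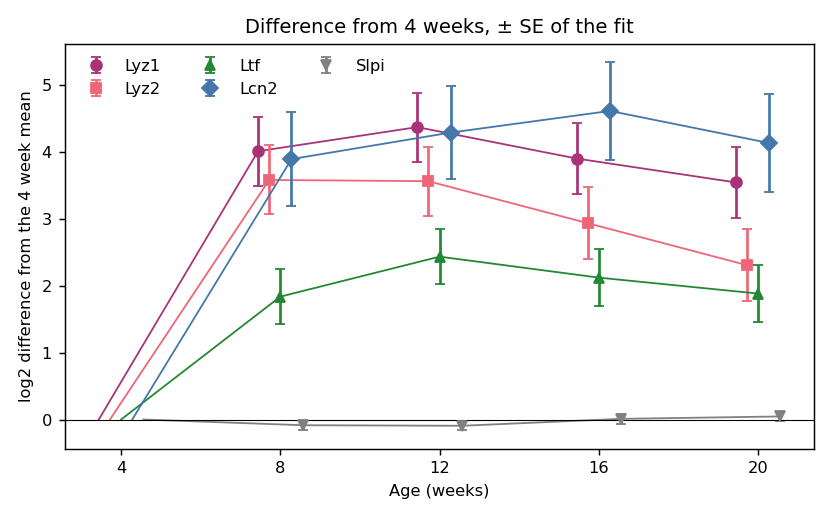
Log2 difference of each gene from its 4-week mean by age in weeks, with bars for the SE of the fit. Lyz1, Lyz2 and Lcn2 lie 2.31 to 4.62 above the 4-week mean at the 4 later ages, Ltf 1.84 to 2.44 above it, and Slpi -0.09 to 0.05 from it.

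After 8 weeks none of the members passed the test in any step to the next age (limma, Benjamini-Hochberg over 12377 genes). Of those genes, 0.0162% were called at 12 against 8 weeks, 2.98% at 16 against 12 weeks and 0.0162% at 20 against 16 weeks, so 0 of 5 members is near the background share. None had an unadjusted p under 0.05 either. At 12 against 8 weeks, a comparison that shares the 8-week arrays with the differences above, Ltf was 13.42 ± 0.36 at 12 weeks and 12.82 ± 0.42 at 8 weeks (SD, n = 6 each), a difference of 0.60 ± 0.36 (SE), with a 95% interval of -0.16 to 1.36 (adjusted p from limma 1.00). The other members differed by -0.02 to 0.40 in that step. The 95% interval for Lyz2 in that step was -0.98 to 0.94.

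At 16 against 12 weeks Lyz2 was 10.11 ± 0.57 at 16 weeks (SD, n = 5) and 10.73 ± 0.45 at 12 weeks (n = 6), a difference of -0.63 ± 0.48 (SE; 95% interval -1.63 to 0.38; limma adjusted p 0.433). Lyz1 differed by -0.47 ± 0.48, Ltf by -0.31 ± 0.38 and Lcn2 by 0.32 ± 0.66, with limma adjusted p of 0.555, 0.621 and 0.773. Slpi differed by 0.10 ± 0.06 near background (limma adjusted p 0.346). With the 2 arrays that stand apart left out, the differences were -0.69 for Lyz2, -0.54 for Lyz1, -0.39 for Ltf and 0.65 for Lcn2, and none passed. For every member the 16-week and 12-week arrays overlapped.

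At 20 against 16 weeks all 4 varying genes had lower means at 20 weeks, and 1 array decided this for 3 of them. Lyz2 averaged 9.48 ± 1.44 at 20 weeks and 10.11 ± 0.57 at 16 weeks (SD, n = 5 each), a difference of -0.63 ± 0.51 (SE; limma adjusted p 0.662). Lcn2 differed by -0.48 ± 0.69, Lyz1 by -0.36 ± 0.50 and Ltf by -0.24 ± 0.40, with limma adjusted p of 0.802, 0.800 and 0.833. Without 20 weeks replicate 1 the differences were -0.07 for Lyz2, 0.28 for Lyz1, 0.20 for Ltf and 0.30 for Lcn2, and without both arrays that stand apart they were -0.01, 0.35, 0.28 and -0.03 in the same order. Slpi differed by 0.04 ± 0.07 (limma adjusted p 0.856).

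Among arrays of the same age, Lyz1, Lyz2 and Lcn2 went up and down together and with the macrophage marker list. Each age was centred on its own mean, and 45 relations were computed with 100000 permutations of the arrays within ages, two-sided. Of these 12 passed at an adjusted p of 0.05, 6 passed without the 2 arrays that stand apart, and 6 passed in both. Under quantile normalization 3 passed. The share of other genes with correlations of this size was not computed, so the counts are not shown to be particular to the members. Lyz1 correlated with Lyz2 with a Pearson r of 0.88 and a Spearman rho of 0.79 (permutation p 1e-05 for both, the smallest these permutations can give; adjusted p of r 0.00045; n = 26). Without the 2 arrays r was 0.77. The uncertainty on what the _x_at probe sets read applies to every correlation of Lyz1 given here. Without _x_at and _s_at probe sets 1450822_at, which was near background, stands for Lyz1. Its r was then 0.03 with Lyz2, 0.06 with Lcn2 and 0.16 with the macrophage list.

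Lyz1 and Lcn2 correlated with r = 0.77 and rho = 0.59 (permutation p 0.00341 and 0.00608; adjusted p of r 0.0153), and r was 0.62 without the 2 arrays (adjusted p 0.0392). Lyz2 and Lcn2 had r = 0.72 and rho = 0.59 (permutation p 0.00287 and 0.00612; adjusted p of r 0.0143), but r = 0.58 without the 2 arrays did not pass (adjusted p 0.0933). Ltf had r of 0.39, 0.53 and 0.43 with Lyz1, Lyz2 and Lcn2, none of which passed (adjusted permutation p 0.336, 0.18 and 0.29). Without the 2 arrays these were -0.26, 0.15 and 0.03. Whether the correlations of Ltf differ from those among the other genes was not tested.

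The mean of the 16 kept macrophage markers, among them the complement genes C1qa, C1qb and C1qc, correlated with Lyz1 at r = 0.86 and rho = 0.80 (permutation p 9e-05 and 6e-05; adjusted p of r 0.00157). With Lyz2 r was 0.78 and rho 0.70 (permutation p 0.00014 and 0.00037; adjusted p of r 0.00157). With Lcn2 r was 0.84 and rho 0.74 (permutation p 0.00011 and 0.00026; adjusted p of r 0.00157). All 3 passed without the 2 arrays that stand apart, at 0.87, 0.73 and 0.62 (adjusted permutation p 0.00045, 0.00075 and 0.0203). Leaving out the 2 arrays farthest from the median macrophage level gave 0.87, 0.83 and 0.83. Those were 4 weeks replicates 3 and 4, at 4.58 and 4.68, picked on values not centred by age. That choice cannot show how much rests on arrays far from the mean of their own age. Within the 6 arrays of 8 weeks alone r was 0.97, 0.94 and 0.64, and within the 6 of 12 weeks 0.80, 0.64 and 0.49. Ltf correlated with the macrophage list at r = 0.45 (adjusted permutation p 0.225), and at 0.05 without the 2 arrays. In whole tissue, fewer cells of a type and less RNA per cell cannot be told apart.

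**Figure D4:**
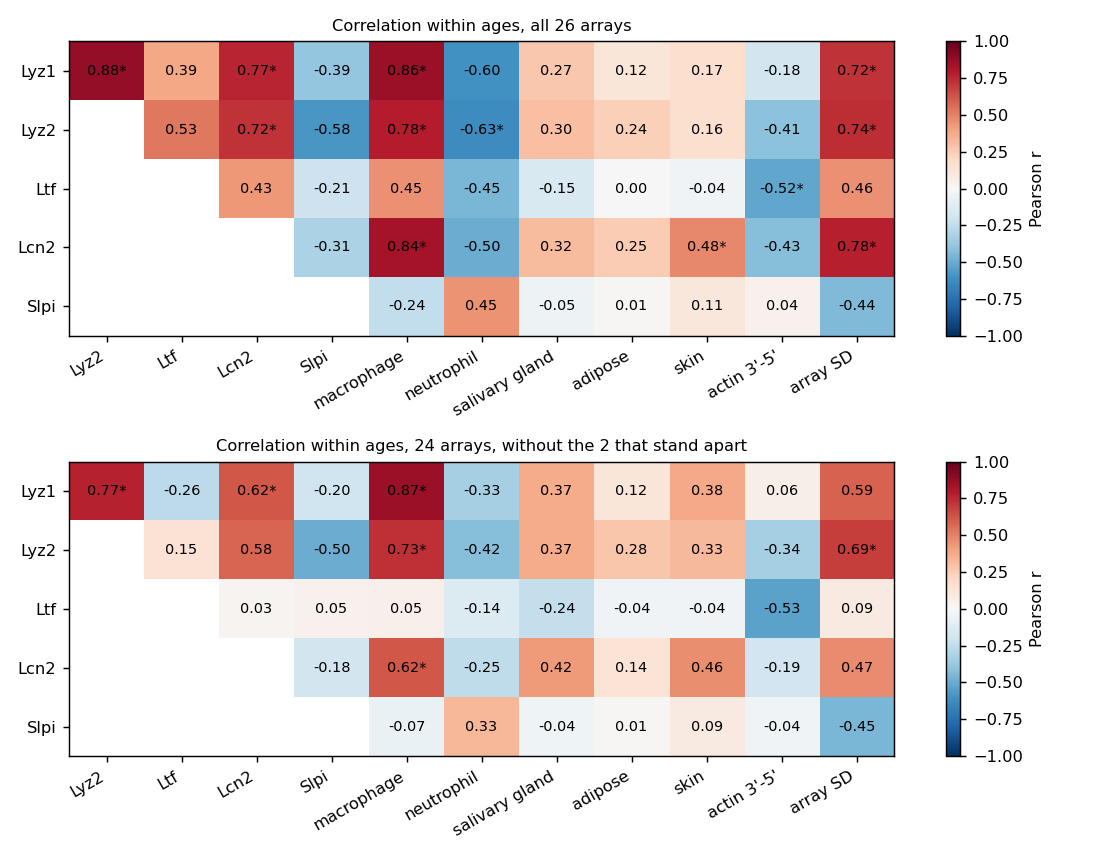
Pearson correlations between age-centred values of the members and of marker-list means, actin RNA quality and array spread, over 26 arrays (top) and over 24 (bottom). Colour gives r between -1 and 1, and an asterisk marks an adjusted permutation p under 0.05. The macrophage column is marked for Lyz1, Lyz2 and Lcn2 in both panels, and no cell of Ltf is marked in the bottom panel.

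The spread of each array, measured as its SD over all probe sets, moved with the same genes. It correlated with Lyz1 at r = 0.72 and rho = 0.52 (permutation p 0.007 and 0.0144; adjusted p of r 0.0286), with Lyz2 at r = 0.74 and rho = 0.65 (0.00235 and 0.00102; adjusted 0.0143) and with Lcn2 at r = 0.78 and rho = 0.66 (0.00066 and 0.00078; adjusted 0.00594), each over 26 arrays by permutation. Without the 2 arrays it passed for Lyz2 at r = 0.69 (adjusted permutation p 0.0045), and r was 0.59 for Lyz1 and 0.47 for Lcn2. The part of this spread in the correlations above was not tested beyond quantile normalization, which gives all arrays 1 spread. Under it Lyz1 with Lyz2 (0.71), Lyz1 with the macrophage list (0.62) and Lcn2 with that list (0.63) passed, with adjusted permutation p of 0.0276, 0.0276 and 0.0355. Lyz1 with Lcn2 (0.51), Lyz2 with Lcn2 (0.38) and Lyz2 with the macrophage list (0.38) did not.

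RNA quality was read from the actin controls, as the 3′ minus the 5′ signal, which is larger in degraded RNA. This signal ran from 1.87 to 4.10 at 4 weeks, 2.04 to 3.11 at 8, 3.26 to 4.66 at 12, 3.12 to 5.71 at 16 and 2.73 to 4.97 at 20 weeks. The part of RNA quality in the differences between ages was not tested. Within ages the actin signal correlated with Ltf at r = -0.52 and rho = -0.34 (permutation p 0.0103 and 0.106; adjusted p of r 0.0388), and without the 2 arrays at -0.53 (adjusted permutation p 0.0717). The skin list correlated with Lcn2 at r = 0.48 and rho = 0.55 (permutation p 0.00208 and 0.00593; adjusted p of r 0.0143), and at 0.46 without the 2 arrays (adjusted permutation p 0.0933). That list rests on 4 kept genes, of which Flg and Dsg1a were near background on all arrays and Krt10 and Sbsn were not. Sbsn rose by 2.46 ± 0.53 (SE) at 8 against 4 weeks and by 2.63 ± 0.56 at 20 against 4 weeks (limma adjusted p 0.022 and 0.0149). These calls were kept in 21 and 24 of 26 fits that left out 1 array. Over all genes 1.36% and 2.21% were called, and Krt10, Flg and Dsg1a did not pass in either comparison. Salivary gland and adipose lists differed widely between arrays, from 4.10 to 11.83 and from 3.37 to 9.01 as list means, and none of their 10 correlations with the members passed by Pearson r. By rank, Lyz2 with the adipose list passed (rho 0.51, adjusted permutation p 0.0233), where r was 0.24 (adjusted permutation p 0.225). The part of these tissues in the members' levels was not tested otherwise.

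Neutrophils, which store lactoferrin, lipocalin 2 and lysozyme in their granules, were represented by markers mostly near background. Of the 17 neutrophil markers with a probe set, 14 were near background on all 26 arrays, among them Mpo (at most 3.09), Elane (at most 2.65), Camp (at most 4.03), Ngp (at most 2.68) and S100a8 (at most 3.02). S100a9, the partner of S100a8 in calprotectin, was above the limit on 1 array, where it read 4.80, and Itgb2l was above it on all 26, at 4.72 to 6.00. The 4 markers kept were Ctsg, Mmp9, S100a9 and Itgb2l, and none passed in any of the 5 comparisons. At 4, 8, 12 and 20 weeks the means of Ctsg, Mmp9 and S100a9 were near background, at 3.16 to 3.53. Ctsg averaged 3.58 at 16 weeks, also near background. The mean of all 4 kept markers, which thus rests largely on values near background, correlated with Lyz2 at r = -0.63 and rho = -0.63 (permutation p 0.00262 and 0.00022; adjusted p of r 0.0143). It did not pass without the 2 arrays, at -0.42 (adjusted permutation p 0.0933), or under quantile normalization, at -0.16 (adjusted permutation p 0.767). Lyz1, Lcn2 and Ltf had r of -0.60, -0.50 and -0.45 with it (adjusted permutation p 0.0526, 0.0936 and 0.145). By rank Lyz1 and Lcn2 passed, with rho of -0.57 and -0.49 (adjusted permutation p 0.0182 and 0.0439).

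Macrophage markers were higher at 8 weeks too. At 8 against 4 weeks, 1.36% of the 12377 genes were called, and the members' own differences in this comparison are those on which they were chosen. Of the 16 kept macrophage genes 8 rose, none fell, and the median change was 1.98, beside 0.03 over all genes. The mean of the list ran between 6.16 and 7.30 on the 8-week arrays and between 4.58 and 5.20 on the 4-week arrays, without overlap, and between 4.81 and 7.31 at 20 weeks. The part of these cells in the levels of the members was not tested. The list was chosen with earlier results of these data known. C1qa was 8.31 ± 0.56 at 8 weeks and 4.37 ± 0.85 at 4 weeks (SD, n = 6 and 4), a rise of 3.93 ± 0.68 (SE; limma adjusted p 0.00297). C1qc rose by 3.20 ± 0.55, C1qb by 2.53 ± 0.47 and Mpeg1, which encodes a pore-forming protein of phagocytes, by 1.68 ± 0.32, and all 4 were called in all 26 fits that left out 1 array, though Mpeg1 was lost under quantile normalization (limma adjusted p 0.0544). The remaining 8 changed by 0.58 to 2.36 without passing, from Aif1 to Cd68. At 20 against 4 weeks, with 2.21% of all genes called, 7 of the 16 rose, with a median change of 1.63. Without the 2 arrays that stand apart, which left 4.88% and 8.25% of all genes called in these comparisons, 11 rose at 8 weeks and 12 at 20 weeks. Of the listed genes, of any list, 0 passed there when only the 2 ages were fitted.

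The same comparisons were made for other antimicrobial products of secretory epithelium. Of 19 kept genes in that list, 1 rose at 8 against 4 weeks and 2 rose at 20 against 4 weeks, none fell, and the median changes were 0.00 and 0.06. With the 2 arrays that stand apart left out, 4 rose at 8 weeks, and 4 rose and 1 fell at 20 weeks. Over all genes, 1.36% and 2.21% were called in these comparisons, and 4.88% and 8.25% without those arrays. The same shares apply to the lists below. Pigr, the receptor that carries IgA into secretions, was 11.78 ± 0.31 at 8 weeks and 10.04 ± 1.08 at 4 weeks, a rise of 1.74 ± 0.44 (limma adjusted p 0.0495). That call held without 4 weeks replicate 4, 8 weeks replicate 6 or 20 weeks replicate 1, and was lost without any other single array (limma adjusted p up to 0.23). At 20 against 4 weeks Pigr rose by 1.77 ± 0.46 (limma adjusted p 0.044), a call kept in 6 of 26 fits that left out 1 array. The rise at 20 weeks was 2.30 without the 2 arrays that stand apart (limma adjusted p 0.000171). Of 12 other settings, 5 kept the call of Pigr at 8 weeks and 6 that at 20 weeks. Pglyrp1, a peptidoglycan recognition protein, was 7.39 ± 1.65 at 20 weeks and 4.25 ± 1.31 at 4 weeks, a rise of 3.14 ± 0.67 (limma adjusted p 0.0156). It was lost without 4 weeks replicates 2 or 4 or 20 weeks replicate 4 (limma adjusted p 0.0787, 0.0542 and 0.0504). Pglyrp1 rose by 3.87 without the 2 arrays that stand apart (limma adjusted p 5.13e-05). Lpo, lactoperoxidase of tears, differed by 0.07 ± 0.57 at 8 against 4 weeks (limma adjusted p 0.946).

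**Figure D5:**
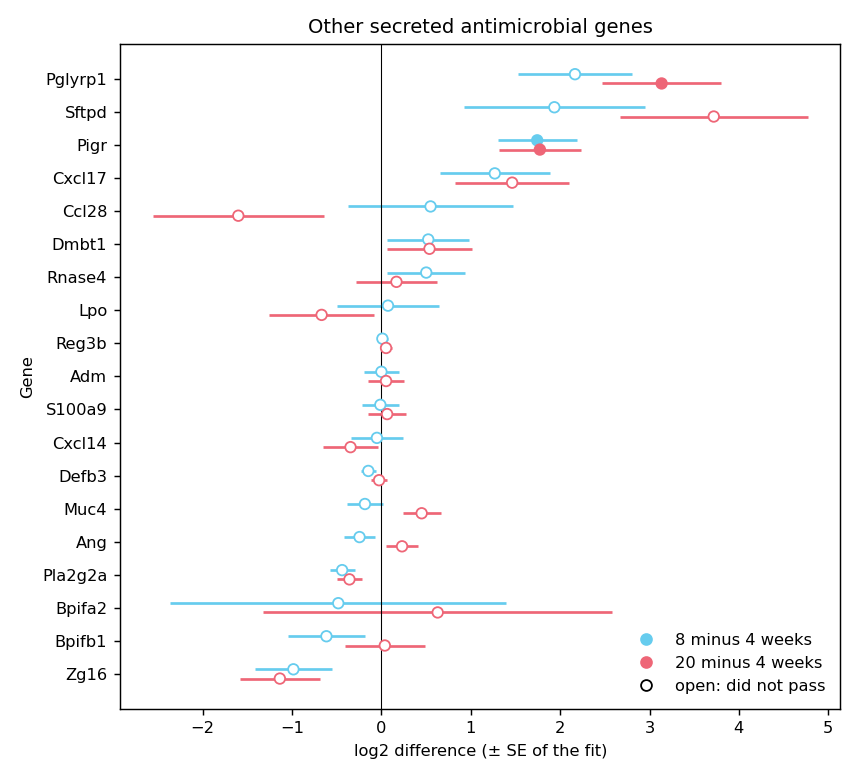
Log2 difference from 4 weeks of the 19 kept genes of the secreted antimicrobial list at 8 weeks and at 20 weeks, with bars for the SE of the fit. Filled points passed the test. Pigr passed at both ages and Pglyrp1 at 20 weeks, and the other genes did not pass.

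In the iron-withholding list, none of 12 kept genes passed at 8 against 4 weeks, with a median of 0.26, and 1 rose at 20 against 4 weeks. That gene, Cp, encodes the ferroxidase ceruloplasmin and was 7.45 ± 1.63 at 20 weeks and 4.78 ± 0.28 at 4 weeks, a rise of 2.66 ± 0.55 (limma adjusted p 0.0126), lost without 4 weeks replicate 4 (0.0564). Cp rose by 3.34 when the 2 arrays that stand apart were left out (limma adjusted p 4.57e-06), and 1 gene of the list rose at 8 weeks and 2 at 20 weeks. Of the receptors described for Lcn2, Slc22a17 differed by -0.46 ± 0.23 and Lrp2, megalin, by -0.18 ± 0.13 at 8 against 4 weeks (limma adjusted p 0.372 and 0.494), at means of 4.51 and 4.17 at 8 weeks. Among lipocalins none of 8 kept genes passed in any comparison, though 1 rose at 8 and 1 at 20 against 4 weeks without the 2 arrays that stand apart. In the lysozyme family 2 other genes were kept, Spaca3 and Lyzl6, and neither passed.

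The list of antiproteases related to Slpi also holds genes of other kinds, among them Ctsg (the protease cathepsin G) and Grn (progranulin). None of its 10 kept genes passed at 8 against 4 weeks. Cst3, cystatin C, an inhibitor of cysteine proteases, was 9.54 ± 1.63 at 20 weeks and 6.66 ± 0.64 at 4 weeks, a rise of 2.88 ± 0.53 (limma adjusted p 0.0053), and it was the only one of the 10 to pass there. It rose by 3.60 without the 2 arrays that stand apart (limma adjusted p 5.2e-08), and 5 genes of the list rose at 8 weeks and 4 at 20 weeks. Wfdc12, which like Slpi belongs to the whey acidic protein family, was 12.89 ± 1.12 at 16 weeks and 14.35 ± 0.35 at 12 weeks, and fell by 1.46 on the log2 scale (SE 0.40; limma adjusted p 0.0478). It was the only gene of the list to pass in that step, where 2.98% of all genes were called. The call was lost in 20 of 26 fits that left out 1 array (limma adjusted p up to 0.111). It held without 4 weeks replicate 1, 8 weeks replicate 1, 12 weeks replicate 1, or 20 weeks replicates 1, 4 or 5. Without 16 weeks replicate 4 the change was -0.96 (limma adjusted p 0.111), and without both arrays that stand apart it was also -0.96 and passed (limma adjusted p 0.0282). The call was kept in 6 of 12 other settings. The inflammatory list had 20 kept genes. Of these Relb, an NF-κB subunit, was 4.33 ± 0.76 at 8 weeks and 2.88 ± 0.05 at 4 weeks. That is a rise of 1.45 ± 0.35 from near background (limma adjusted p 0.0379). The call was lost without any single 4-week array or 8 weeks replicates 1, 3 or 5 (limma adjusted p up to 0.121). At 16 against 12 weeks Relb was 3.08 ± 0.30 at 16 weeks and 4.30 ± 0.79 at 12 weeks, and fell by 1.22 on the log2 scale (limma adjusted p 0.0472), a call kept in 8 of 26 such fits and lost without the 2 arrays that stand apart (-1.16; limma adjusted p 0.0675). Of 12 other settings, 9 kept the first call of Relb and 8 the second. The other 19 kept genes of that list did not pass at either step. Without the 2 arrays that stand apart, 3 genes of the list rose at 8 and 4 at 20 against 4 weeks.

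The genes whose levels over the 26 arrays most resembled those of the lysozymes included macrophage and antigen-presentation genes. For Lyz1 (1439426_x_at) the highest Pearson correlations were with C1qc (0.96), Cotl1 (0.94), H2-Eb1 (0.93), Srgn (0.92) and Mpeg1 (0.92). For Lyz2 they were with C1qa (0.94), C1qc (0.94), H2-Eb1 (0.91), Cotl1 (0.91) and Psme1 (0.91). For Lcn2 they were Ctss (0.93), C1qb (0.92), Efhd2 (0.91), Mpeg1 (0.91) and Fgl2 (0.91). For Ltf the first were Fcgbp (0.91), which encodes a mucin-like protein of secretions, and Pigr (0.84), followed by Enpep (0.84), C1qc (0.84) and Fgl2 (0.83). Slpi most resembled Prss21 (0.89), Fbp1 (0.86), Myo18b (0.85), Il18 (0.85) and Gata6 (0.84), whose means were also near background at every age. These genes were picked for the size of r from 12377, and age, array and spread are shared by all points.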

How the data were processed

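RNA of 26 lacrimal gland samples was hybridised to Affymetrix arrays. The deposited table holds log2 values of 45101 probe sets. Per the submitters' processing notes, RMA and GCRMA were used, with no version, and their share in these values is unknown here. Values were used as deposited. The platform annotation gave 34958 probe sets 1 gene symbol, 932 several and 9211 none. Probe sets with several or none were left out. Each gene took the probe set of highest mean, and was kept if this lay above the array median on at least 4 arrays (12377 of 18194 genes).

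Ages were taken from the titles. A mean per age was fitted over all arrays with limma 3.58.1 (R 4.3.3, lmFit and eBayes), and p-values were adjusted by Benjamini-Hochberg over the genes kept, with a threshold of 0.05, two-sided. The tests were run first on simulated data. Within-age correlations used 100000 permutations. The numbers of arrays, 4 to 6 per age, limit the precision.

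The members and the lists (199 genes, 182 with a probe set, 123 kept) were chosen with earlier results of these data known. Per list and comparison up to 4 called genes with the smallest p were open to be named, with Slc22a17, Lrp2, Elane, Camp, S100a8, S100a9, Lpo, Pigr and Bpifa2 added, and for each member the 5 kept genes of highest correlation. Of the genes picked, not all are described. Mpo, Ngp, Itgb2l, Ctsg, Mmp9, Grn, Flg, Dsg1a, Krt10, Aif1, Cd68, Spaca3 and Lyzl6 were named after their values were seen. So were the lacrimal markers Aqp5, Bhlha15, Car6, Krt8 and Chrm3 and the lymphocyte genes Cd3e, Cd4, Cd8a and Ms4a1. Alternatives were quantile normalization, centring, other filters, other ways to use probe sets, eBayes with trend and robust, array weights, only the ages compared, the replicate number as a block, leaving out each array or the 2 that stand apart, and, chosen after seeing the data, array spread as a covariate. RefSeq upstream windows came from GRCm38.p6.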

Additional observations from a re-analysis of the deposited data

Results flagged for a closer look

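Of 35 groups of arrays of 1 probe set and 1 age, 5 held an array far from the others by Dixon's test at 95%, and chance flags about 1 in 20 such groups. On 20 weeks replicate 1, which also stands apart over all probe sets, Lyz1 read 8.69 with 1436996_x_at against 11.49 to 12.07 on the other 4 arrays, and 9.09 with 1439426_x_at against 11.86 to 12.53. The macrophage list mean was 4.81 on that array against 6.48 to 7.31 on the other 20-week arrays, and the part of this in the low values was not tested. The third 4-week array gave Lyz2 a value of 5.73, while the rest of that age gave 7.49 to 7.74. On probe sets near background, 1450822_at of Lyz1 read 3.99 on 12 weeks replicate 2 against 2.71 to 2.87, and Slpi read 3.41 on 8 weeks replicate 2 against 3.53 to 3.59.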

How the results depend on the processing

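None of the members passed in the 3 later steps under the main setting, under any other setting run or without any 1 array. With Lyz1 probe sets averaged, Lyz1 differed from 4 weeks by 2.66 at 8 and 2.35 at 20 weeks, and without _x_at and _s_at probe sets it was represented by 1450822_at, which was not kept. The directions of steps that did not pass turned in several settings. At 16 against 12 weeks Ltf was 0.01 under quantile normalization and Lyz1 0.13 with array spread as a covariate. At 20 against 16 weeks Lyz1 and Ltf were 0.01 and 0.07 under quantile normalization, 0.36 and 0.12 with array weights and 0.35 and 0.28 without the 2 arrays that stand apart, Slpi was -0.01 with centring, and the covariate of array spread gave 0.04 for Lcn2. Leaving out 1 array also turned such steps, Lyz2 to 0.14 at 12 against 8 weeks among them. The 12 within-age correlations that passed became 6 without the 2 arrays that stand apart, 3 under quantile normalization, where relations with array spread could not be computed, and 7 without _x_at and _s_at probe sets. Lcn2 with the skin list turned to -0.0167 under quantile normalization, and Lyz1 with array spread to -0.18 without _x_at and _s_at probe sets, where 1450822_at stands for Lyz1.

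Of the listed genes, 12 passed at 8 against 4, 0 at 12 against 8, 2 at 16 against 12, 0 at 20 against 16 and 14 at 20 against 4 weeks. In the same order of comparisons, array weights, whose estimate stopped before convergence, gave 54, 3, 13, 4 and 50. Leaving out the 2 arrays that stand apart gave 29 at 8 against 4, 2 at 12 against 8, 1 at 20 against 16 and 32 at 20 against 4 weeks. Array spread as a covariate gave 1 at 12 against 8, 6 at 16 against 12 and 28 at 20 against 4 weeks. Using only the 2 ages compared gave 1 at 12 against 8 and 0 at 20 against 4 weeks. Quantile normalization gave 1 at 12 against 8 weeks. At 16 against 12 weeks quantile normalization gave 4, no filter gave 0, and centring, every probe set tested on its own and eBayes with trend and robust gave 1 each. Leaving out 1 array gave 5 (without 4 weeks replicate 3) to 22 (without 20 weeks replicate 1), 0 to 1, 0 to 2, 0 to 1, and 6 (without 4 weeks replicate 2) to 26 (without 20 weeks replicate 1).

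With the replicate block, 6 listed genes passed at 8 against 4 weeks, 0 at 16 against 12 weeks and no member in any later step. Samples of the same number did not deviate together on average (mean r -0.02 over 47 pairs, lowest -0.48, highest 0.49). Whether they share more than a number is not stated in the labels. Over all genes kept, 168 were called at 8 against 4 (93 to 4557 over the settings), 2 at 12 against 8 (1 to 142), 369 at 16 against 12 (201 to 2795), 2 at 20 against 16 (0 to 249) and 273 at 20 against 4 weeks (4 to 3473). At 16 against 12 weeks, 44 were higher and 325 lower, against 270 and 233 under quantile normalization. No detection calls were used, so changes of Slpi, of 1450822_at and of Lcn2 at 4 weeks are limited by background.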

Other observations

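Pigr carries IgA, which plasma cells make. Of the 6 kept genes of the plasma cell and lymphocyte list, 1 rose at 8 against 4 weeks and 2 rose at 20 against 4 weeks. None fell, and the median changes were -0.13 and 0.36. Over all genes 1.36% and 2.21% were called. The lymphocyte genes Cd3e, Cd4, Cd8a and Ms4a1 did not pass in either comparison, with changes of -0.38 to -0.05 at 8 weeks and of -0.21 to 0.64 at 20 weeks. Cd3e and Cd8a had means near background at 4, 8 and 20 weeks, and Cd4 (3.75) and Ms4a1 (4.01) at 8 weeks. A change of these genes below background could not be detected. Igha, the IgA heavy chain, rose by 3.18 ± 0.60 at 8 against 4 weeks and by 5.14 at 20 against 4 weeks, and Jchain, the chain that joins IgA into dimers, rose by 4.82 at 20 against 4 weeks. Without the 2 arrays that stand apart the rises at 20 weeks were 5.56 for Igha and 5.57 for Jchain. These calls were kept in all 26 fits that left out 1 array, and those at 20 weeks were lost when only the 2 ages were fitted (limma adjusted p 0.0825 for Igha and 0.17 for Jchain). Bpifa2, a salivary protein, ran between 5.06 and 15.58 over the 26 arrays.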
